A study of Mus musculus with 141 samples.

Results

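The 6 genes that encode the chains of type IV collagen, *Col4a1* to *Col4a6*, were followed through single tdTomato-positive cells of mouse lung. They were taken by name from the 17136 genes of the read count matrix, and all 6 were listed with reads. Type IV collagen is the collagen of basement membranes, where 3 chains wind into a heterotrimer and the heterotrimers join into a sheet-like network. The products of *Col4a1* and *Col4a2* form the heterotrimer found in nearly all basement membranes, those of *Col4a3*, *Col4a4* and *Col4a5* form the heterotrimer known from the glomerulus and the alveolus, and those of *Col4a5* and *Col4a6* form the heterotrimer with the narrowest distribution. The genes lie in the genome as 3 head-to-head pairs, each pair read outwards in opposite directions from neighbouring starts. Alveolar type 1 (AT1) cells are the thin cells of gas exchange, whose basement membrane is partly fused with that of the capillaries.

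The cells came from 1 male *ACID;R26tdTomato* mouse of 4 months on a background labelled 129SV and given as 129S6/SvEvTac in the study's methods, which carried a Cre-IRES-DsRed cassette in *Aqp5* and a floxed-stop tdTomato reporter at ROSA26, 1 copy of each. Cre made from the *Aqp5* locus turns on the reporter for good, so any cell that had once used *Aqp5* could be sorted, airway cells included. Cells were sorted as CD31-, CD45-, E-cadherin+ and tdTomato+ and captured one by one on a Fluidigm C1 chip, and there was no other condition. With 1 mouse there is 1 sample and nothing to test, so levels are described by their counting error and by their spread over cells.

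Of the deposited cells, 92 had less than 15% of their reads on mitochondrial genes and were kept, and 49 were not. Type 1 cells were those with an *Ager* level of at least 5000 CPM, the reads of a gene per 1000000 reads of a cell, and type 2 cells those with at least 8000 CPM of *Sftpc*. There were 45 type 1 cells, 11 type 2 cells and 36 remaining cells, and no cell passed both thresholds. The type 1 cell with the least *Ager* had 9335 CPM and the highest cell outside had 1402 CPM. The corresponding *Sftpc* values were 25437 CPM and 7774 CPM, and for the mitochondrial share 14.8% and 15.1%. The median of total reads was 468718 in type 1 cells (157105 to 1022879), 413806 in type 2 cells (174055 to 1483749) and 693389 in the remaining cells (142003 to 2170760).

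The classes were checked against marker genes other than *Ager* and *Sftpc*, because the sample labels give every cell as alveolar type 1, whereas 47 of the 92 kept cells were under the *Ager* threshold and led by other markers or by none. A list of 14 AT1 markers led in 45 of 45 type 1 cells, with a median score of 9.19, the mean of log2(CPM + 1) over the list, against 2.60 in type 2 cells and 2.22 in the remaining cells. The study picked *Gprc5a* and *Rtkn2*, both on this list, partly from these same cells. For these genes the check is not independent. A list of 10 AT2 markers led in 10 of 11 type 2 cells, and in the other one, in chip column 16 and row 6, AT2 and club markers scored alike. Of the remaining cells, 13 were led by club, 12 by ciliated and 8 by basal markers, and 1 each by the fibroblast, mesothelial and AT2 lists. In type 1 cells the club list had 742 CPM, most of it *Scgb1a1*, with at least 5 reads in 39 of 45 cells, and the AT2 list 405 CPM, most of it *Abca3*. The type 1 cell in column 2 and row 6 scored 8.90 for AT1 and 7.60 for club markers. Their part in the levels of the chains was not tested. Endothelial cells, fibroblasts and pericytes are the usual makers of *Col4a1* and *Col4a2* in lung. In the 45 type 1 cells together the 5 endothelial markers listed had 11 reads (0.476 CPM), of which 10 were *Pecam1*, and *Kdr*, *Cldn5* and *Tek* were at 0. The 7 fibroblast markers listed had 8 reads there, with *Mgp* highest at 3 reads and *Col1a2* and *Fn1* at 0. The 4 mesothelial markers had 24 reads, 20 of them *Msln*, while *Ptprc* and *Myh11*, the only immune and the only smooth muscle marker listed, were at 0.

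In GENCODE vM21 on GRCm38, *Col4a1* spans chromosome 8 from 11198423 to 11312826 on the minus strand and *Col4a2* from 11312805 to 11449287 on the plus strand, so the 2 genes overlap by 22 bases at their starts. *Col4a3* spans chromosome 1 from 82586921 to 82722059 on the plus strand and *Col4a4* from 82448423 to 82586849 on the minus strand, with 71 bases between the starts. *Col4a5* spans chromosome X from 141475385 to 141689234 on the plus strand and *Col4a6* from 141165403 to 141474076 on the minus strand, with 1308 bases between the starts. Exons of *Col4a3* share 563 bases with the antisense gene *C430014B12Rik*, which had 24 reads in all kept cells against 21837 of *Col4a3*. The other exonic overlaps of a chain, those 22 bases and 43 bases of *Col4a2* with the antisense gene *Gm15419*, are short beside the 6.62 to 10.6 kb of exon per chain.

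RefSeq promoter windows of GRCm38.p6, from 250 bases before to 50 bases after the start, were found for 5 of the 6 chains. The 3 windows printed here are those that reach the start of the head-to-head partner, so each holds the annotated starts of both genes of a pair. Capitals mark a GC box (GGGCGG) or a CCAAT box (CCAAT) on either strand. The windows are chr8:11312777-11313076 on the minus strand, chr8:11312555-11312854 on the plus strand and chr1:82586800-82587099 on the minus strand, each written 5′ to 3′ along its gene.
Col4a1 window: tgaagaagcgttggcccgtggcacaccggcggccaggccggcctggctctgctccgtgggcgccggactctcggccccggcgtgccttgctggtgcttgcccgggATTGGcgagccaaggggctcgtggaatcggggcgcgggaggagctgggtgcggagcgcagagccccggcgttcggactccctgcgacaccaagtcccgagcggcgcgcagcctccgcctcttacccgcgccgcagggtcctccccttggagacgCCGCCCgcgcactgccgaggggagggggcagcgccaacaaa
Col4a2 window: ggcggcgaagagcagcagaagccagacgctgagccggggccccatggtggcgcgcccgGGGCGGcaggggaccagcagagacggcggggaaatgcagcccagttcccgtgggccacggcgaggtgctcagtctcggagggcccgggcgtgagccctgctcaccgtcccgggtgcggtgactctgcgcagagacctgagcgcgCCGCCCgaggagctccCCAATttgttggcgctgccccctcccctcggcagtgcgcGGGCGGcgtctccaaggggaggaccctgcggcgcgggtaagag
Col4a4 window: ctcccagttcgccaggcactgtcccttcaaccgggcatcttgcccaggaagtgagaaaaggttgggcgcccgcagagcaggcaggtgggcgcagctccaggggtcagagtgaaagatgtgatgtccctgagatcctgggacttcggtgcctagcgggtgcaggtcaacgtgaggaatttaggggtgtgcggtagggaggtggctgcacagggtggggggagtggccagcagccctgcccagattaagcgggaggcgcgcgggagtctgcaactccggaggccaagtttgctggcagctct
The *Col4a1* and *Col4a2* windows have 78 bases in common, and the GC box at position 260 of the first is the same site as that at position 258 of the second, at 11312812 to 11312817 of chromosome 8. The first 179 bases of the *Col4a4* window lie at or past the annotated start of *Col4a3*. GC content was 74% with 37 CpG in the *Col4a1* window and 73.7% with 33 CpG in the *Col4a2* window, above 95.2% and 94.9% of the 32851 windows in the RefSeq table, whose median was 52.7% with 7 CpG. The *Col4a4* window had 63.3% GC and 14 CpG, the *Col4a5* window 52.7% and 11, and the *Col4a6* window 48.3% and 3. The pair on chromosome 8 thus had the most GC-rich windows and the pair on chromosome X the least.

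The 5 windows were searched on both strands for 5 short motifs, of which no 2 overlapped in these windows. GGGCGG was found 1 time for *Col4a1*, 3 times for *Col4a2* and 1 time each for *Col4a5* and *Col4a6*, and is in 35.7% of all windows. CCAAT was found 1 time each for *Col4a1*, *Col4a2* and *Col4a5* and is in 37.4% of all windows. CATTCC, a core of TEAD sites, was found 1 time, for *Col4a6* (14.7% of all windows), and TATAAA (13.6%) and CACTTG, a core of NKX2-1 sites (13.6%), in none of the 5. These are matches of letters in a window and were not tested as sites.

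*Col4a3* and *Col4a4* were the chains with reads in every type 1 cell. In the 45 type 1 cells *Col4a3* ranged from 1.69 through a median of 716 to 2864 CPM, in the 11 type 2 cells from 0 through 0 to 1.47 CPM, and in the 36 remaining cells from 0 through 0 to 409 CPM. Every type 1 cell was above every type 2 cell, though the lowest type 1 cell and the highest type 2 cell had 1 read each, and 27 of 45 were above every other cell. The CPM of summed reads was 933 in type 1 cells (exact Poisson 95% interval 921 to 946), 0.618 in type 2 cells (0.168 to 1.58) and 8.98 in the remaining cells (7.89 to 10.2). This interval and those that follow for CPM and log2 ratios cover the counting error of reads only, not the spread between cells or mice. They treat each read as independent. Reads copied by PCR are not independent molecules, so the intervals do not cover the counting error of molecules. The log2 ratio of type 1 cells to the 47 other kept cells was 6.99 (6.80 to 7.17), and that to type 2 cells was 10.56 (9.21 to 12.44) on 4 type 2 reads. A single cell led by basal markers, in column 12 and row 11, held 226 of the 247 reads outside type 1 (91.5%), and without it the log2 ratio to the other cells was 10.52.

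*Col4a4* ranged from 2.39 through 1798 to 10021 CPM in type 1 cells, from 0 through 2.64 to 1024 CPM in type 2 cells and from 0 through 1.44 to 1097 CPM in the remaining cells. Its summed CPM was 1948 (1929.97 to 1966), 118.3 (110.04 to 126.9) and 55.6 (52.8 to 58.5), a log2 ratio of type 1 to the other cells of 4.85 (4.79 to 4.91). The groups overlapped, with 19 of the 47 other cells above the lowest type 1 cell and 31 of 45 type 1 cells above every other cell, and none of the other cells reached the type 1 median. Most reads outside type 1 came from 2 cells. The mesothelial-led cell in column 8 and row 21 had 1386 of the 2269 reads outside type 1 (61.1%), and the type 2 cell in column 13 and row 35 had 742 of the 766 type 2 reads (96.9%). Without the former the log2 ratio to the other cells was 6.15, and without the latter that to type 2 cells was 8.87. Neither of these cells had more than 2 reads of *Col4a3*, and the basal-led cell with 226 reads of *Col4a3* had 3 of *Col4a4*.

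**Figure D1:**
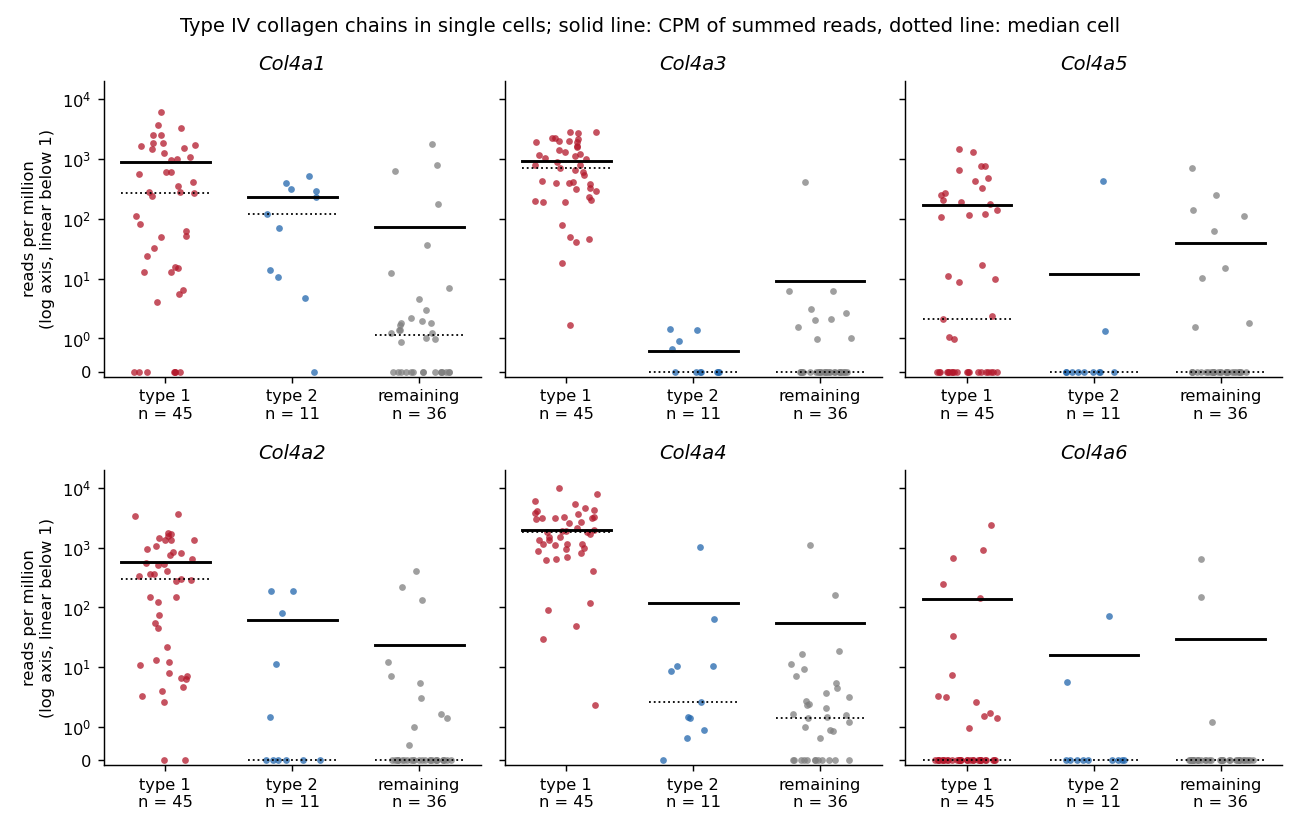
Each point is 1 kept cell, the vertical axis is CPM on a log axis that is linear below 1, and the classes are type 1, type 2 and remaining cells. Solid lines give the CPM of summed reads and dotted lines the median cell, with *Col4a3* and *Col4a4* above 0 in all 45 type 1 cells and *Col4a6* at a median of 0 in every class.

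*Col4a1* and *Col4a2*, the ubiquitous chains, were higher in type 1 cells as a class but were spread over a wide range within it. *Col4a1* ranged from 0 through 266 to 6030 CPM in type 1 cells, from 0 through 118.9 to 525 CPM in type 2 cells and from 0 through 1.13 to 1762 CPM in the remaining cells. Its summed CPM was 882 (869.7 to 894), 231 (219.7 to 243) and 72.8 (69.6 to 76.1), with a log2 ratio of 3.09 (3.04 to 3.14) to all other cells and of 1.93 (1.85 to 2.01) to type 2 cells. The ranges overlapped throughout, 7 type 1 cells had no read of *Col4a1*, and 7 lay above every other cell. *Col4a1* had at least 5 reads in 8 of 11 type 2 cells.

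*Col4a2* ranged from 0 through 298 to 3647 CPM in type 1 cells, from 0 through 0 to 190.2 CPM in type 2 cells and from 0 through 0 to 412 CPM in the remaining cells. Its summed CPM was 571 (561 to 581), 61.3 (55.4 to 67.6) and 23.96 (22.1 to 25.9), a log2 ratio of 4.19 (4.10 to 4.29) to all other cells and of 3.22 (3.08 to 3.37) to type 2 cells. A single type 2 cell held 202 of the 397 type 2 reads (50.9%), and without it the ratio to type 2 cells was 3.98. The groups overlapped, with 18 type 1 cells above every other cell and 2 at 0. In the 5 type 2 cells with most *Col4a1* (233 to 525 CPM), *Col4a2* ranged from 0 to 187 CPM.

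*Col4a5*, the chain that joins 2 different heterotrimers, and *Col4a6* had few or no reads in most type 1 cells. *Col4a5* ranged from 0 through 2.13 to 1447 CPM in type 1 cells, from 0 through 0 to 431 CPM in type 2 cells and from 0 through 0 to 692 CPM in the remaining cells. Its summed CPM was 169 (164 to 174), 11.9 (9.38 to 14.9) and 38.7 (36.4 to 41.1), a log2 ratio to all other cells of 2.34 (2.24 to 2.43). The groups overlapped throughout, and 20 of 45 type 1 cells had no read of it. Reads of *Col4a5* were found in 2 type 2 cells, and the cell with 75 of the 77 reads was the one in which AT2 and club markers scored alike.

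*Col4a6* ranged from 0 through 0 to 2417 CPM in type 1 cells, from 0 through 0 to 70.8 CPM in type 2 cells and from 0 through 0 to 652 CPM in the remaining cells. Its summed CPM was 137.2 (132.5 to 142), 16.4 (13.4 to 19.8) and 29.8 (27.8 to 31.97), a log2 ratio to all other cells of 2.33 (2.23 to 2.44). That value rested on 1 type 1 cell, in column 10 and row 35, which had 2154 of the 3174 type 1 reads (67.9%). Without it the type 1 level was 45.9 CPM and the log2 ratio 0.75. A single cell outside type 1 likewise had 617 of the 913 reads there (67.6%), and without that cell alone the log2 ratio was 3.92. No direction was read for *Col4a6*, since 31 of 45 type 1 cells had no read of it.

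A log2 ratio of at least 2, that is 4-fold, was counted as higher. Among the 8599 genes with reads in at least 10 kept cells, 14.5% were higher in type 1 cells than in all other cells and 16.8% were lower by the same margin, with a median log2 ratio of 0.00 over all tested genes. All 6 chains were among those higher, and 5 of the 6 without the type 1 cell that held most *Col4a6*. *Col4a6* had reads in 14 type 1 and 5 other cells and so passed the minimum of 10 cells only with its type 1 cells, which makes its place among the higher genes no support. By size of the ratio the chains ran in the order *Col4a3*, *Col4a4* (place 224 of 8599 genes), *Col4a2* (303), *Col4a1* (612), *Col4a5* (997) and *Col4a6* (998). Against type 2 cells alone 33.2% of genes were higher, and of the chains all but *Col4a1* were, with log2 ratios of 3.07 to 10.56. Without the type 1 cell that held most *Col4a6*, the ratio of that chain to type 2 cells was 1.49 in place of 3.07, which leaves 4 of the 6. Without the type 2 cell with most of its reads, the ratio was 2.09 for *Col4a1*, which then also passed. It was 8.47 in place of 3.83 for *Col4a5* and 7.84 in place of 3.07 for *Col4a6*. Summed over a pair, the log2 ratio to all other cells was 3.43 (3.39 to 3.48) for *Col4a1* and *Col4a2*, 5.26 (5.21 to 5.32) for *Col4a3* and *Col4a4* and 2.33 (2.26 to 2.41) for *Col4a5* and *Col4a6*. The last of these was 1.87 without the cell in column 10 and row 35. Without the cell outside type 1 with the most reads of the pair the 3 values were 3.62, 6.36 and 2.81.

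Levels of different chains were compared per kb of exon. In type 1 cells the level was 184 CPM per kb for *Col4a4*, 118.1 for *Col4a1*, 93.6 for *Col4a3*, 86.2 for *Col4a2*, 25.2 for *Col4a5* and 17.2 for *Col4a6*. *Col4a4* was thus the most abundant chain, the chromosome 8 pair and *Col4a3* lay within a factor of 2 of each other, and the X-linked chains were the least abundant. Division by length is apt only where reads spread along the whole transcript. The share of reads that this kit takes from the 3′ end of a transcript was not measured. Without division by length *Col4a3* (933 CPM) was above *Col4a1* (882 CPM), while *Col4a4* stayed highest and the X-linked chains lowest. The shares below and the cell-by-cell ratios of partners rest on the same division. Of the sum over 6 chains per kb in a type 1 cell, *Col4a3* and *Col4a4* made up a median of 57.5% (5.45% to 99.6%) and were the largest pair in 29 cells. *Col4a1* and *Col4a2* made up a median of 30.6% and were largest in 14 cells, and *Col4a5* and *Col4a6* made up 0.310% and were largest in 2.

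**Figure D2:**
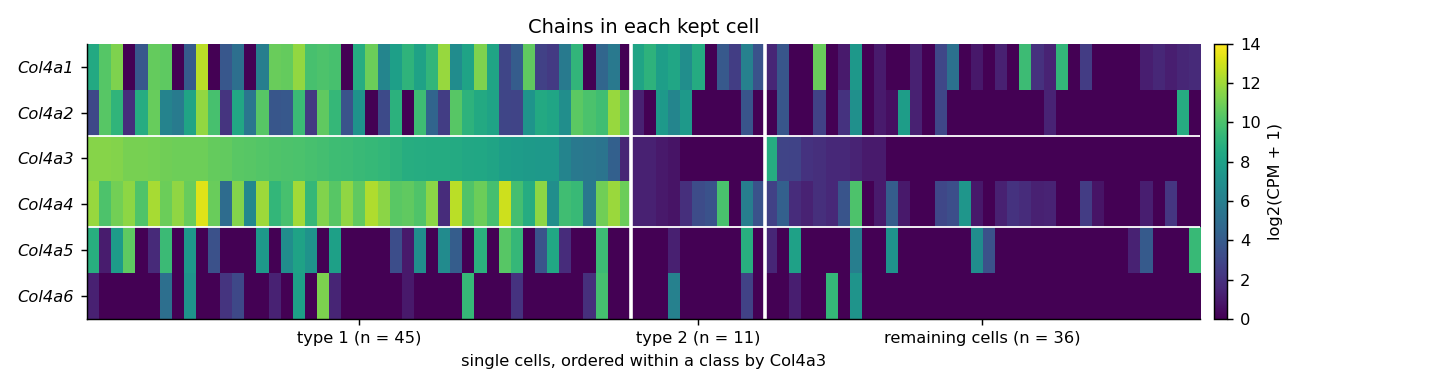
Each column is 1 of 92 kept cells, ordered within its class by *Col4a3*, each row is a chain, and color is log2(CPM + 1) from 0 to 14. *Col4a3* and *Col4a4* have reads in all 45 type 1 columns, though 1 cell has 1 read of *Col4a3* and another has 2 reads of *Col4a4*. *Col4a1*, *Col4a2* and *Col4a5* come and go between neighbouring cells.

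The chains of one heterotrimer were next sought in the same cell. A chain was counted as present at 5 reads, because counts of 1 to 4 reads were common outside type 1 cells. *Col4a4* had 1 to 4 reads in 19 of 36 remaining and 8 of 11 type 2 cells against 1 of 45 type 1 cells. The minimum does not remove low counts of an abundant gene, since *Ager* had at least 5 reads in 30 of 36 remaining and 11 of 11 type 2 cells. At 5 reads, both *Col4a3* and *Col4a4* were present in 43 of 45 type 1 cells (95.6%, Clopper-Pearson 95% interval 84.9% to 99.5%), in 0 of 11 type 2 cells (upper limit 28.5%) and in 0 of 36 remaining cells (upper limit 9.74%). Both *Col4a1* and *Col4a2* were present in 29 type 1 cells (64.4%, 48.8% to 78.1%), 3 type 2 cells and 1 remaining cell. Both chains were found more often with *Col4a3* and *Col4a4*, which were each present in 44 of 45 type 1 cells (*Col4a2* with *Col4a4* in 37, *Col4a1* with *Col4a3* in 33), and less often with *Col4a5* (14 cells each). Both *Col4a5* and *Col4a6* were present in 4 type 1 cells (8.89%, 2.48% to 21.2%), 0 type 2 cells and 1 remaining cell. The counts outside type 1 depend on this minimum, which was chosen after the values were seen, and at 1 read both *Col4a3* and *Col4a4* were found in 4 of 11 type 2 and 9 of 36 remaining cells and both *Col4a1* and *Col4a2* in 5 and 9. The order of the pairs in type 1 cells was the same at 1 read, with 45, 36 and 8 cells, and after each cell had been thinned to 90000 reads, with 39, 20 and 3 cells at 5 reads.

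Only 2 type 1 cells lacked 1 chain of the *Col4a3* and *Col4a4* pair. The cell in column 1 and row 40 had 1 read of *Col4a3* and 1081 of *Col4a4*, and that in column 5 and row 34 had 328 of *Col4a3* and 2 of *Col4a4*. For the other pair 4 type 1 cells had *Col4a1* without *Col4a2*, 8 had *Col4a2* without *Col4a1* and 4 had neither. The single remaining cell with both *Col4a1* and *Col4a2*, and with both *Col4a5* and *Col4a6*, was the mesothelial-led cell. It had 176, 131.4, 1.58, 1097, 63.3 and 149.6 CPM of *Col4a1* to *Col4a6*, so *Col4a3* alone of the 6 stayed under 5 reads there.

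The 3 chains of the alveolar heterotrimer, *Col4a3*, *Col4a4* and *Col4a5*, were all present in 17 of 45 type 1 cells (37.8%, 23.8% to 53.5%) and in no other cell. *Col4a5* was the limiting chain of the count, being present in 18 type 1 cells, of which 17 also had the other two. The 4 chains of the autosomal pairs were all present in 29 type 1 cells and in no other cell, and all 6 chains in 3 type 1 cells. Type 1 cells held 2 to 6 of the chains, most often 4 (17 cells). Type 2 cells held 0 to 3, and 20 of 36 remaining cells held none. After thinning, *Col4a3*, *Col4a4* and *Col4a5* were all present in 15 type 1 cells (33.3%), the 4 autosomal chains in 19 and all 6 chains in 1, and the most frequent number of chains was 3 (16 cells). A chain with fewer than 5 reads may be below detection in a cell at these depths and was not taken as absent.

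The rank correlation of head-to-head partners was low within type 1 cells. Across all 92 kept cells Spearman's rho was 0.775 for *Col4a3* and *Col4a4*, the highest of the 15 pairs that 6 chains can form, 0.419 for *Col4a1* and *Col4a2* (rank 6) and 0.284 for *Col4a5* and *Col4a6* (rank 10). Across the 45 type 1 cells it was 0.211 (rank 1), 0.0478 (rank 9) and 0.127 (rank 5), and all 15 pairs lay between -0.129 and 0.211. Rank 1 was close to a tie, with *Col4a2* and *Col4a4* at 0.202. It was not kept by Pearson's r on log2(CPM + 1), which was 0.127 for *Col4a3* and *Col4a4* and 0.241 for *Col4a1* and *Col4a3*. The values are descriptions, given without a p, over cells that share 1 mouse and 1 chip and differ in depth. With total reads, Spearman's rho in type 1 cells was 0.367 for *Col4a1*, -0.328 for *Col4a4* and between -0.110 and 0.123 for the other chains, and the part of depth in the pair values was not tested. In the whole set of kept cells, *Col4a2* was closer to *Col4a4* (0.652) and *Col4a3* (0.626) than to *Col4a1*. That set mixes classes that differ in these levels. Across the 47 cells outside type 1, many with few or no reads, the order of the partners was reversed. There rho was 0.212 for *Col4a3* and *Col4a4*, 0.335 for *Col4a1* and *Col4a2* and 0.452 for *Col4a5* and *Col4a6*.

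**Figure D3:**
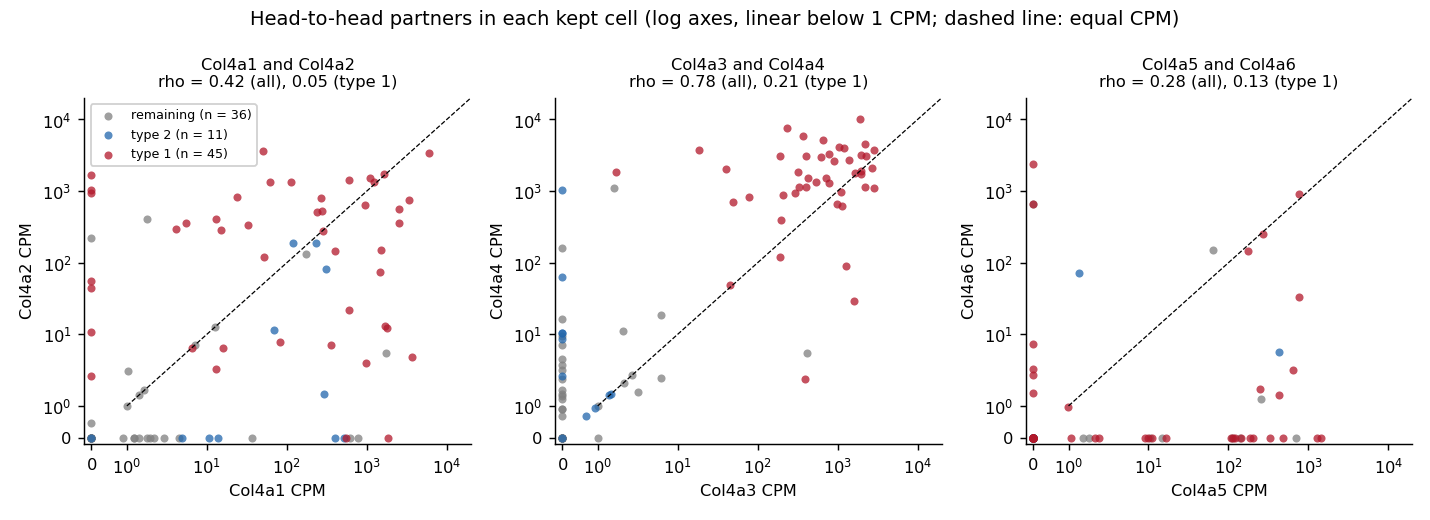
Each point is 1 kept cell placed by the CPM of both genes of a head-to-head pair, on log axes that are linear below 1 CPM, with equal CPM as a dashed line. Most type 1 cells lie in the upper right for *Col4a3* and *Col4a4* (rho 0.211 over all 45). Type 1 cells scatter across the panel for *Col4a1* and *Col4a2*, and lie mostly on the axes for *Col4a5* and *Col4a6*.

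The ratio of partners was also taken cell by cell, per kb, in type 1 cells with at least 5 reads of both. *Col4a2* over *Col4a1* ran from -7.03 to 6.36 on the log2 scale in 29 cells, with a median of 0.15 and an SD of 3.56. *Col4a2* was the higher in 15 cells and *Col4a1* in 14, and the partners were over 4-fold apart in 15 cells and over 16-fold apart in 9. *Col4a4* over *Col4a3* ran from -5.87 to 7.58 in 43 cells, with a median of 1.25 and an SD of 2.32, and was above 0 in 31. The partners were over 4-fold apart in 14 of these 43 cells and over 16-fold apart in 4. *Col4a6* over *Col4a5* could be taken in only 4 cells, from -4.74 to 0.01. The chromosome 8 partners were near balance in the median cell and far from it in single cells, as in the cell with 1181 reads of *Col4a1* and 8 of *Col4a2* (column 11, row 26) and that with 19 and 1381 (column 19, row 39).

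**Figure D4:**
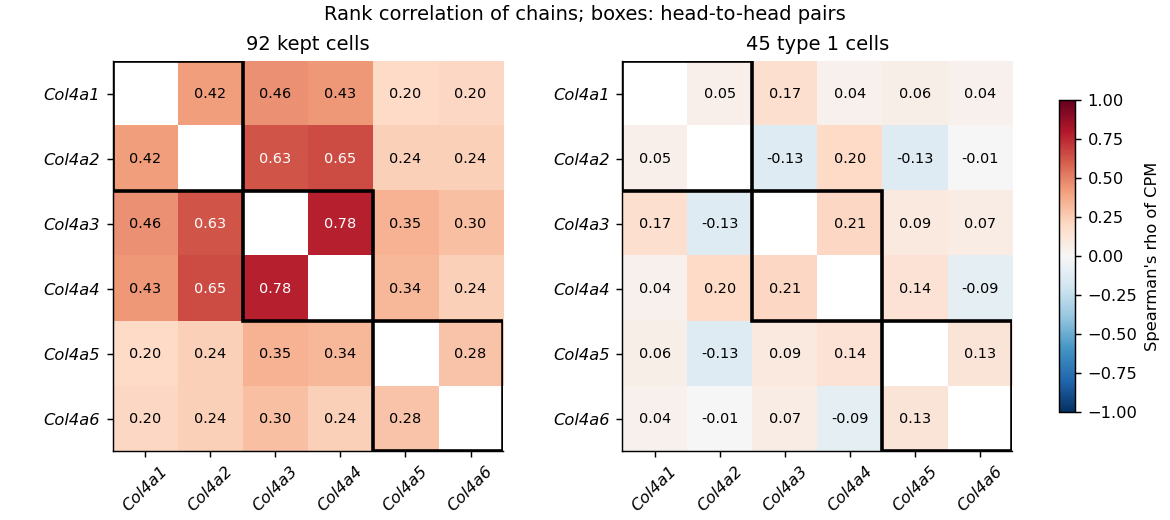
Both panels give Spearman's rho of CPM for every pair of chains, over 92 kept cells on the left and 45 type 1 cells on the right, with color from -1 to 1 and boxes around the head-to-head pairs. On the left *Col4a3* and *Col4a4* reach 0.775, and on the right no pair passes 0.211.

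The genes most like each chain were listed by rho over the kept cells, among 8598 other genes. For *Col4a3* these were *Akap5* (0.806), *Spock2* (0.791), *Vegfa* (0.788), *Fam189a2* (0.778) and, in place 5, *Col4a4*. For *Col4a4* they were *Spock2* (0.826), *Akap5* (0.782), *Col4a3*, *Emp2* (0.764) and *Pmp22* (0.757). *Akap5*, *Spock2* and *Emp2* are on the AT1 marker list, so both chains followed the genes that mark the class. *Col4a2* came closest to *Fam189a2* (0.704) and *Sparc* (0.692), and *Col4a1* to *Sparc* (0.533), which encodes a collagen-binding protein, and *Slc39a8* (0.532), which encodes a zinc transporter. *Col4a1* was in place 130 for *Col4a2*, and *Col4a2* in place 40 for *Col4a1*. No gene passed 0.502 for *Col4a5* (*Xrcc4*) or 0.488 for *Col4a6* (*Zdhhc17*).

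Within type 1 cells the lists were different. Over 4605 genes the highest rho was 0.572 for *Col4a1* (*1110008F13Rik*), 0.560 for *Col4a2* (*Per1*), 0.532 for *Col4a3* (*Dbt*), 0.505 for *Col4a4* (*Tapbp*), 0.576 for *Col4a5* (*Tardbp*) and 0.559 for *Col4a6* (*Ube2w*). *Col4a4* was in place 410 for *Col4a3*, *Col4a3* in place 275 for *Col4a4*, and *Col4a2* in place 2271 for *Col4a1*. With 45 cells and so many genes, such values were read as no more than a list.

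Among the 36 remaining cells, most reads of a chain came from a few cells. Of the 12 ciliated-led cells, 1 had *Col4a1* at 1762 CPM (column 17, row 29), another *Col4a2* at 412 CPM (column 18, row 19) and another *Col4a5* at 692 CPM (column 18, row 38). In each case the partner gene had at most 2 reads, and without these cells the level in ciliated-led cells was 1.28, 0.825 and 0 CPM. Of the 8 basal-led cells, *Col4a1* was at 785 and 618 CPM in 2 and *Col4a5* at 253 and 109.7 CPM in 2 others. Of the 13 club-led cells, 1 had *Col4a6* at 652 CPM, 1 had *Col4a2* at 219 CPM and 1 had *Col4a5* at 141.4 CPM. The fibroblast-led cell had 37.1 CPM of *Col4a1* and 0 of *Col4a2*. At 5 reads, 23 of the 47 cells outside type 1 held no chain, 22 held at least 1 chain without its head-to-head partner and 2 held chains only in pairs. In type 1 cells these counts were 0, 25 and 20 of 45. Of the 46 other cells in chip columns that also held a type 1 cell, 26 had 1 to 4 reads of *Col4a4*, and the 1 cell in a column without one did too. The part of carry-over along columns in these low counts was not tested.

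The partners of the chains in the basement membrane were taken from lists by role, with 49 genes of which 43 were in the matrix and 30 had reads in at least 10 kept cells. Of the 30, 16 were at least 4-fold higher in type 1 cells than in all other cells, 0 were lower and 14 were neither, with a median log2 ratio of 2.71 against 0.00 for all tested genes and beside the 14.5% of all genes that were higher. The minimum of 10 cells bears on this, since a gene high in type 1 cells can pass it through them alone. *P3h2*, *Colgalt2* and *Pxdn* did so, which makes their place among the 16 no support, and the median of 2.71 includes them. Of the 13 listed genes under the minimum, 7 were at least 4-fold lower in type 1 cells (*Adgrg6*, *Lamb1*, *Loxl1*, *Lama4*, *Nid1*, *Ddr2* and *Nid2*). Of the others, 1 was higher (*Mmp14*, 2.54, but -0.45 without the type 1 cell with 87.5% of its reads there) and 5 were neither. Each of the 7 had most of its reads in the mesothelial-led cell (4 genes) or the fibroblast-led cell (3 genes). For 5 of them this was every read outside type 1, so that without that cell no ratio could be taken, and the others were *Lamb1* (-6.44 without it) and *Adgrg6* (-6.09). In alternatives chosen after seeing the data, leaving out, for each gene, the type 1 cell with most of its reads left 16 higher (9.43% of all genes) and put 2 below -2, *Lamc1* (-2.16) and *Colgalt1*, beside 30.6% of all genes, and leaving out the cell outside type 1 with most of its reads gave 19 (26.3% of all genes), with *Lamb2*, *Lamb3* and *Itga3* (2.14) added. The latter also raised the log2 ratio of *Lama3* to 7.57, of *Hspg2* to 10.19, of *Npnt* to 4.90, of *Pxdn* to 9.75, of *P4ha2* to 4.33, of *Plod1* to 7.08, of *Plod2* to 5.05 and of *P3h2* to 10.80. Among laminins and linkers 5 of 9 were higher. *Hspg2*, the heparan sulfate proteoglycan perlecan, had 319 CPM in type 1 and 1.34 CPM in all other cells (log2 ratio 7.89), *Lama3*, a laminin alpha chain, 434 and 9.22 CPM (5.56), *Npnt*, an integrin ligand, 637 and 52.9 CPM (3.59), and *Agrn*, agrin, 636 and 93.6 CPM (2.76). *Tinagl1* was the other, with a log2 ratio of 3.47. At least 5 reads were found in 22 of 45 type 1 cells for *Hspg2*, 20 for *Tinagl1*, 35 for *Agrn* and 39 each for *Lama3* and *Npnt*. The laminin chains *Lama5* (71.5 and 71.7 CPM), *Lamb2* (127.5 and 64.1 CPM), *Lamb3* (365 and 108.5 CPM) and *Lamc1* (10.2 and 29.1 CPM) did not reach 4-fold. Of the reads outside type 1, a single cell held 54.7% for *Lamb2*, 41.9% for *Lamb3* and 73.03% for *Lamc1*. Without that cell the log2 ratio was 2.09 in place of 0.99 for *Lamb2*, 2.50 in place of 1.75 for *Lamb3* and 0.31 in place of -1.52 for *Lamc1*, so no direction was read for *Lamc1*. For *Lama5* the log2 ratio was -0.51 without the type 1 cell with most of its reads and 0.59 without the corresponding cell outside type 1. *Nid1* and *Nid2*, which link laminin to type IV collagen, had reads in 1 kept cell each and none in type 1 cells.

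Of the enzymes and chaperones that modify and export collagen chains, 6 of 12 were at least 4-fold higher in type 1 cells, beside 14.5% of all tested genes. Of the 6, *P3h2* and *Colgalt2* passed the minimum of 10 cells only with their type 1 cells, which makes their place no support. *P3h2*, a prolyl 3-hydroxylase of type IV collagen, was at 165 CPM against 0.179 CPM (log2 ratio 9.85, on 6 reads in the other cells), the lysyl hydroxylases *Plod1* at 360.4 and 5.97 CPM (5.92) and *Plod2* at 239.6 and 17.9 CPM (3.74), and the prolyl 4-hydroxylase subunit *P4ha2* at 435 and 40.9 CPM (3.41). Of these, *P3h2* had at least 5 reads in 13 of 45 type 1 cells, with a median of 0 CPM. *Plod1* had them in 28 cells and *Plod2* and *P4ha2* in 19 each. *Colgalt2*, a collagen galactosyltransferase, was at 28.1 and 0.119 CPM (7.88, on 4 reads in the other cells). It had at least 5 reads in 5 of 45 type 1 cells, 1 of which held 62.7% of the type 1 reads, and without that cell it was at 10.9 CPM (6.51). *Sparc*, the collagen-binding protein, was at 4402 and 239 CPM (4.20), with at least 5 reads in 45 of 45 type 1 cells. The other 6 did not reach 4-fold. *P4hb* (393 and 347 CPM), *Serpinh1*, the collagen chaperone (104.4 and 92.7 CPM), and *Plod3* (83.6 and 75.9 CPM) had log2 ratios of 0.14 to 0.18, and the prolyl 4-hydroxylase subunit *P4ha1* was at 167 and 108.2 CPM (0.63). Without the type 1 cell with most of its reads the ratio was 0.02 for *P4ha1* and -0.49 for *Plod3*, and without the corresponding cell outside type 1 it was 1.11 and 0.86. *Mia3*, which helps to export collagen from the endoplasmic reticulum, was at 67.9 and 165 CPM (-1.28) and *Colgalt1* at 18.03 and 52.5 CPM (-1.54), the latter with 79.1% of its type 1 reads in 1 cell and a log2 ratio of -3.74 without it.

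*Pxdn*, the peroxidase that crosslinks the ends of type IV heterotrimers, was at 182 CPM in type 1 and 11.8 CPM in other cells (3.95), where 98.2% of its reads outside type 1 were in 1 cell. Of 4 receptors, *Dag1*, dystroglycan, was at 987 and 97.3 CPM (3.34) and the integrin subunit *Itgb1* at 774 and 83.8 CPM (3.21), while the integrin subunit *Itga3* (224 and 66.01 CPM) and the collagen receptor *Ddr1* (63.3 and 72.4 CPM) did not reach 4-fold. For *Ddr1* a single cell held 65.6% of the type 1 reads, and the log2 ratio of -0.19 was -1.67 without it and 0.62 without the cell outside type 1 with most reads, so no direction was read. The inhibitors of matrix proteases *Timp2* (613 and 88.2 CPM, 2.80) and *Timp3* (3891 and 618 CPM, 2.65) were both higher. *Col4a3bp*, named for a protein that was found to bind the *Col4a3* product and best known as a ceramide carrier, was at 95.6 and 41.6 CPM (1.20).

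**Figure D5:**
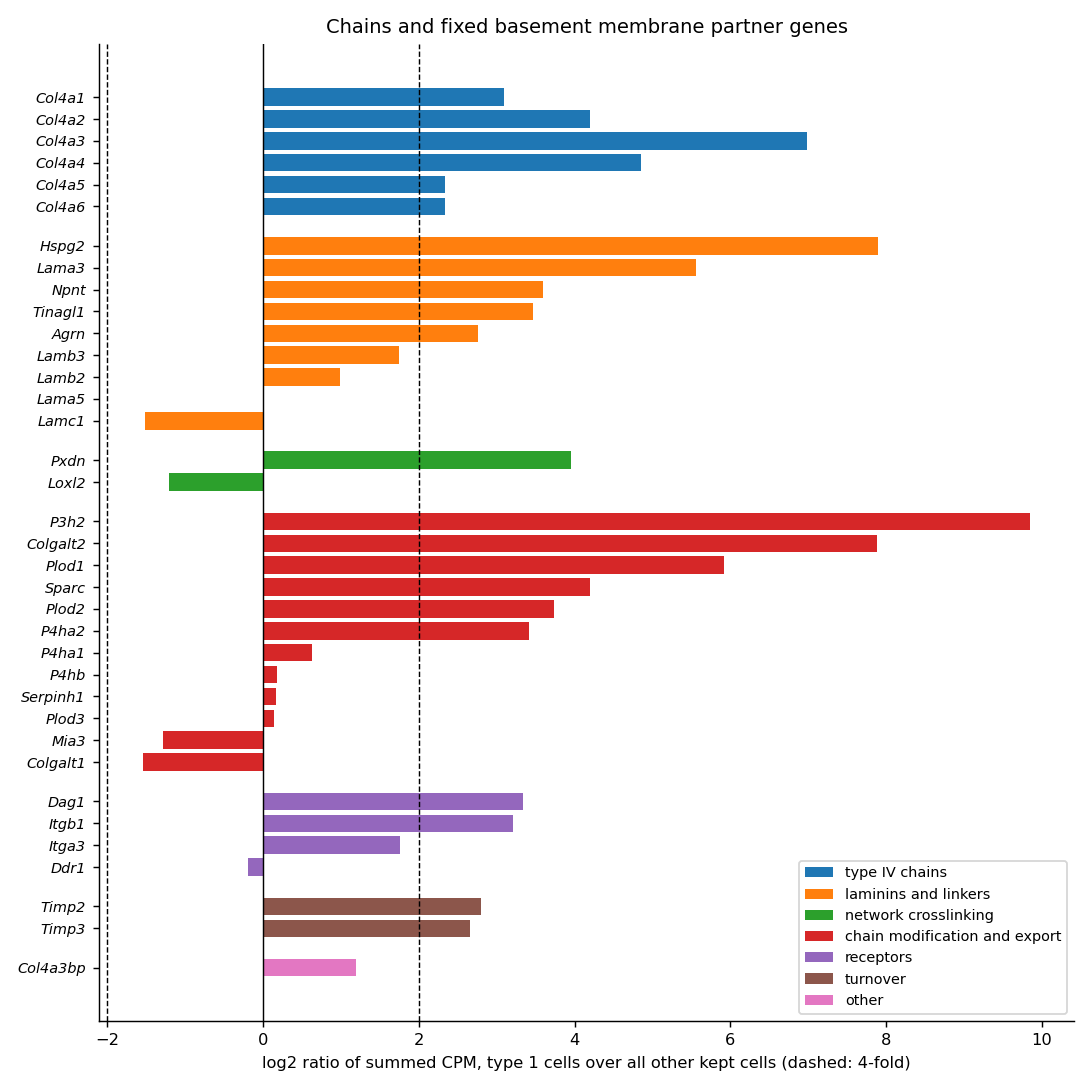
Bars give the log2 ratio of summed CPM, type 1 cells over all other kept cells, for the 6 chains and for the 30 partner genes with reads in at least 10 kept cells, colored by role, and dashed lines mark 4-fold either way. Of the partner genes 16 pass the upper line, from 2.65 for *Timp3* to 9.85 for *P3h2*, and 0 pass the lower one. Among the 16, *P3h2*, *Colgalt2* and *Pxdn* met the minimum of 10 cells only with their type 1 cells. A further 7 listed genes with reads in fewer cells, not drawn, were at least 4-fold lower, 5 of them on the reads of 1 cell.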

How the data were processed

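The deposited values are whole read counts per gene and cell, which the authors did not normalize. Their tools were Trim Galore and FastQC for read quality, HISAT2 for mapping to GRCm38 and featureCounts for counting (versions and annotation release not given in the sources used here). The kit read 26 and 120 bases from each fragment. No molecular identifiers are stated, so counts include PCR copies, and empty sites and doublets were screened by microscopy on the chip, with no doublet caller run. Levels of a class are the pooled counts of its cells, scaled to 1000000 reads (CPM). A log2 ratio counted fewer than 3 reads as 3 reads, and its interval is that of the conditional binomial at 95% confidence. Shares have Clopper-Pearson intervals, which treat the cells of 1 mouse as independent draws. Genes with reads in at least 10 kept cells were compared. Cells were assigned to marker lists by the highest mean of log2(CPM + 1), with a margin of 1. Thinning drew 90000 reads per cell without replacement. All chains and partner genes of fixed lists were eligible to be named, except 1 partner gene that is not reported here and is in no count, with the 5 genes of highest rho per chain listed and some of them named. The members and lists were chosen with earlier results of these data known, and single cells and the minimum of 5 reads were singled out after their values were seen. GC and motif counts come from RefSeq windows, and positions from GENCODE vM21. Software was scipy 1.17.1, numpy 2.4.6, pandas 2.3.3 and matplotlib 3.10.9 under Python 3.11.15, and scran 1.30.0 under R 4.3.3 for an alternative. The functions were tested on simulated data.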

Additional observations from a re-analysis of the deposited data

Results flagged for a closer look

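The 49 cells with a mitochondrial share of at least 15% are outside every comparison above, and they too had reads of the chains. By the same thresholds 19 of them were type 1 cells, with a median of 316610 total reads. In these the pair *Col4a1* and *Col4a2* was at 1923 CPM (1893 to 1954), against 1453 CPM in the kept type 1 cells. The pair *Col4a3* and *Col4a4* was at 2437 CPM (2403 to 2472), against 2881 CPM, and *Col4a5* and *Col4a6* at 143 CPM (134.8 to 152), against 306 CPM. *Col4a6* had 1 read in the 19 cells together, and at 5 reads both *Col4a3* and *Col4a4* were present in 15 of 19, both *Col4a1* and *Col4a2* in 14 of 19. In the 16 removed type 2 cells *Col4a2* (144.6 CPM) was above *Col4a1* (59.3 CPM), the reverse of the kept type 2 cells (61.3 and 231 CPM). In the 14 removed remaining cells the pair *Col4a1* and *Col4a2* was at 432 CPM, against 96.8 CPM in those kept. There *Col4a2* had at least 5 reads in 1 cell. The pair *Col4a3* and *Col4a4* was at 211 CPM in the removed type 2 and 7.46 CPM in the removed remaining cells.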

How the results depend on the processing

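All 42 alternative values of the log2 ratio of type 1 to all other cells kept their sign. The order of the pairs, *Col4a3* and *Col4a4* first and *Col4a5* and *Col4a6* last, changed in none of the alternatives except in chip columns 11 to 20. A pair's value was taken as moved when it left the counting interval, and in 13 of the 42 it stayed inside. In the order of *Col4a1* and *Col4a2*, *Col4a3* and *Col4a4*, and *Col4a5* and *Col4a6*, the ratio was 3.78, 9.06 and 2.84 with a mitochondrial maximum of 0.10, and 3.20, 5.07 and 2.44 with all deposited cells. With scran size factors it was 3.85, 6.18 and 2.72, and with cells thinned to 90000 reads 3.34, 5.72 and 2.55. The mean of single-cell CPM moved 2 pairs, to 3.32 and 5.71. Without the kept cell with the most reads of the pair the ratio was 3.34, 5.20 and 1.87, and in chip columns 1 to 10 it was 4.04, 5.15 and 1.85 and in columns 11 to 20 it was 2.60, 5.41 and 3.21. An *Ager* minimum of 10000 CPM, which puts 1 type 1 cell among the others, gave 4.65 for *Col4a3* and *Col4a4*. Added after seeing the data, leaving out the cell outside type 1 with the most reads of the pair gave 3.62, 6.36 and 2.81, and leaving out the fibroblast-led and mesothelial-led cells gave 6.32 and 2.42 for the last 2 pairs. Apart from the settings that leave out named cells or move a threshold, the cause was not tested.

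The share of type 1 cells with both *Col4a1* and *Col4a2* fell from 80% at 1 read to 64.4% at 5 reads and to 64.4% after thinning, and the other 22 of 24 alternative shares lay within the interval. With a mitochondrial maximum of 0.10, rho of *Col4a1* and *Col4a2* was 0.607 over 50 kept and 0.191 over 19 type 1 cells. In type 1 cells rho of *Col4a5* and *Col4a6* was 0.257 after thinning and, added after seeing the data, 0.238 with counts under 5 set to 0. The other 56 of 60 values of rho moved by at most 0.1. With genes that had reads in at least 1 kept cell, 2636 genes were at least 4-fold higher in type 1 cells in place of 1251, which is 16.6% of 15892 genes in place of 14.5% of 8599. With an *Sftpc* minimum of 4000 CPM, type 2 levels of the pairs were 205, 90.2 and 52.9 CPM in place of 293, 118.9 and 28.3 CPM. No paired analysis was possible because all cells come from 1 mouse and their numbers are only names. With 1 mouse, depth limits the count of a chain in a cell and nothing here measures the spread between animals.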
